A study of Homo sapiens with 6 samples.

Results

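The genes described here are 9 of a set of 10 replication-independent histone variants, found by their symbols among the 26255 gene symbols listed for each library: H2AFX, H2AFZ, H2AFV, H2AFY, H2AFY2 and H2AFJ of the H2A family, the linker histone H1FX, and H3F3A and H3F3B, which both encode histone H3.3. Polyadenylated RNA of HCT116, a long-established human line from a colorectal carcinoma, was sequenced. The series title describes colorectal cancer cells transduced with the degron of ornithine decarboxylase, a segment that directs proteins to proteasomal breakdown with no need for ubiquitin. The labels divide the libraries by the fluorescent protein ZsGreen into 3 ZsGreen-negative and 3 ZsGreen-positive ones, and no other treatment, time or genotype separates the groups in the labels. Sample titles follow a different scheme in each group, and nothing in the labels says that the groups were prepared together, so preparation and fluorescence cannot be told apart. Nor do the labels say that libraries came from separate cultures, and the p-values here thus reflect library-to-library spread alone, possibly technical.

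Nucleosomes wrap DNA around an octamer of core histones, and a linker histone binds where the DNA enters and leaves. Most core histones come from replication-dependent genes, whose transcripts peak in S phase and end in a stem-loop in place of a poly(A) tail. Variant genes are transcribed outside S phase too, their messages carry poly(A) tails, and their proteins exchange into chromatin without DNA replication, where they mark promoters, damaged DNA, silenced domains or differentiated states.

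All values are FPKM, fragments normalised to transcript length and to the mapped total, so that levels of different genes can be compared per length. Means are given with their SD over n = 3 libraries per group, the ZsGreen-negative mean before the ZsGreen-positive one. Log2 fold changes are ZsGreen-positive minus ZsGreen-negative on the log2(FPKM + 1) scale, which understates the change of low genes, and are given with their SE. A gene was called when its Benjamini-Hochberg adjusted p in limma, over all 12213 genes with a mean of at least 1 FPKM, was under 0.05.

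The libraries differed in their low values. Genes listed at 0 numbered 8985 to 9162 in negative libraries, 10314 in ZsGreen-positive replicate 1 and 11624 and 11989 in ZsGreen-positive replicates 2 and 3. Values above 0 but below 0.1 FPKM numbered 1433 to 1569, 1225, and 262 and 185 in the same order, so ZsGreen-positive replicates 2 and 3 stood apart. In units of 1000000 fragments, the step of low values gave a depth of 9.43 to 9.74 for the negative libraries and 12.3 for ZsGreen-positive replicate 1. It was not sought in ZsGreen-positive replicates 2 and 3, where low values were few. Markers of colorectal epithelium were present, with EPCAM at 126 to 152 FPKM, KRT8 at 1083 to 1544 FPKM and KRT18 at 873 to 1526 FPKM, although CDX1 was listed at 0 and VIL1 stayed below 0.04 FPKM in every library. Of 16 markers of immune, endothelial, stromal, blood and liver cells, 12 stayed below 1 FPKM in all libraries, and 5 were at 0 in all. Of the 4 tested, COL1A1 and LYZ fell. The summed level of all 16 was 7.65 to 9.27 FPKM (negative) and 3.81 to 6.99 FPKM (positive).

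Each of the 6 H2A variants was higher in ZsGreen-positive cells, whereas the linker histone H1FX and H3F3B were lower. The largest rise was that of H2AFX, from 7.54 ± 1.17 to 51.1 ± 10.5 FPKM, and H1FX fell from 52.0 ± 6.38 to 31.5 ± 4.70 FPKM. Of the 9 genes, all of which were tested, 6 rose, 2 fell and 1, H3F3A, did not pass. Among all tested genes 59.4% were called, 29.4% as higher and 30.0% as lower. With 8 of 9 called in a comparison where most genes were, the count says little about these genes beyond their direction and size. The groups did not overlap for the same 8 members and for 67.6% of all tested genes. The median log2 fold change was 0.77 over the members and 0.0040 over all tested genes. Leaving out ZsGreen-positive replicates 2 and 3 gave 6 higher and 2 lower as well.

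**Figure D1:**
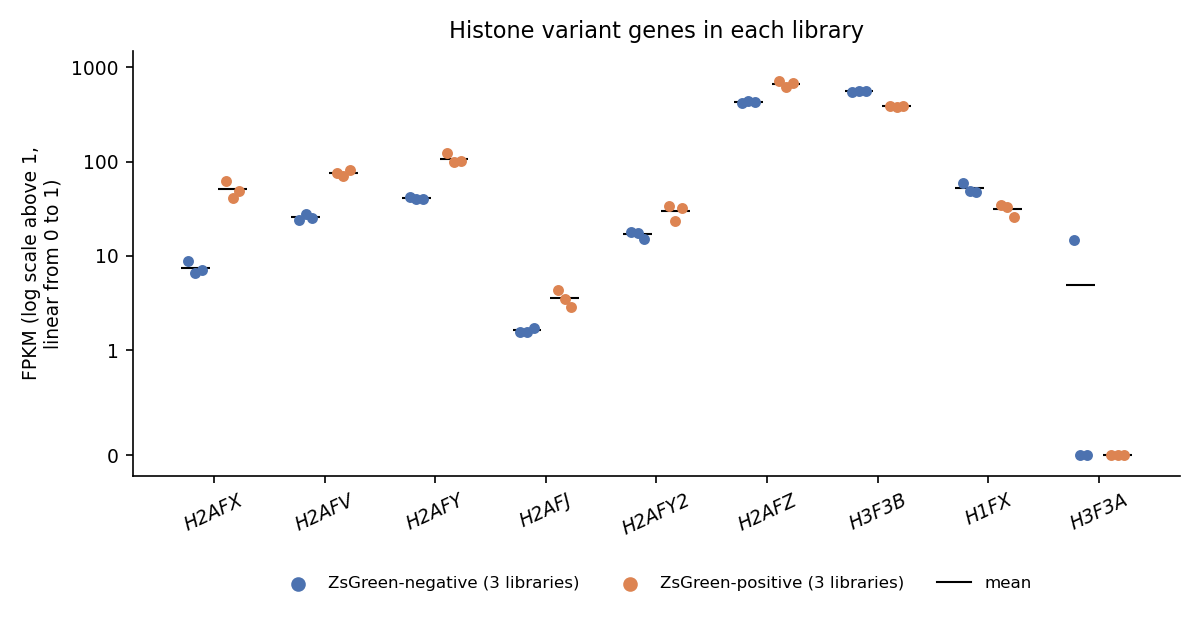
FPKM of each histone variant gene in each of the 6 libraries (points, log axis above 1 and linear from 0 to 1), with the group mean as a line. Positive libraries sit above negative ones for the 6 H2A variants and below them for H3F3B and H1FX, and H3F3A is above 0 in 1 library.

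Promoters of the members could be compared with those sequences of RefSeq (GRCh38.p14) that matched all 9 genes. The 250 bases before the start are shown for 3 genes that rose and 2 that fell, to set side by side what the groups have in common. Capitals mark CCAAT, read as ATTGG on the other strand, and TATAAA. Each is written 5′ to 3′ along its gene, and all of these genes lie on the minus strand. The windows are chr11:119095466-119095715 for H2AFX, chr4:99950276-99950525 for H2AFZ, chr7:44848088-44848337 for H2AFV, chr17:75779780-75780029 for H3F3B and chr3:129316287-129316536 for H1FX.
H2AFX: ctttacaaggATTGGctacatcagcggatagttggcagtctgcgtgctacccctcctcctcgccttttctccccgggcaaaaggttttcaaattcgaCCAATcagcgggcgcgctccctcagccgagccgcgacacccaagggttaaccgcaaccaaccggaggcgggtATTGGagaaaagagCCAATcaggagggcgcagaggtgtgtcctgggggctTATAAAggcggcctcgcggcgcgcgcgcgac
H2AFZ: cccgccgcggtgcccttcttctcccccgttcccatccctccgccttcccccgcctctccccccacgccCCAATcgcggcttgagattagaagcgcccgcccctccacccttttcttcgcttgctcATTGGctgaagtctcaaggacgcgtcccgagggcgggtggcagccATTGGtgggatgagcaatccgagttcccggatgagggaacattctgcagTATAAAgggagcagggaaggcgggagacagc
H2AFV: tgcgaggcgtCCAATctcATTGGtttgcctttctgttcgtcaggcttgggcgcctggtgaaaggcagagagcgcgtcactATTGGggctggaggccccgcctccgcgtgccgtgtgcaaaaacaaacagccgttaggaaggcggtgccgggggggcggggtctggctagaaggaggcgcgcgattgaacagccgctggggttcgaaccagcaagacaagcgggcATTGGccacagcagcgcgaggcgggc
H3F3B: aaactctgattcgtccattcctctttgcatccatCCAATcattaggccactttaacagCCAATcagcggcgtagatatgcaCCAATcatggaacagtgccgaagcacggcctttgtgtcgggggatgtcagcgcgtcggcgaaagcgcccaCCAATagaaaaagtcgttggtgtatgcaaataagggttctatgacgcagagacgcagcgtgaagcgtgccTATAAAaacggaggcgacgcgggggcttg
H1FX: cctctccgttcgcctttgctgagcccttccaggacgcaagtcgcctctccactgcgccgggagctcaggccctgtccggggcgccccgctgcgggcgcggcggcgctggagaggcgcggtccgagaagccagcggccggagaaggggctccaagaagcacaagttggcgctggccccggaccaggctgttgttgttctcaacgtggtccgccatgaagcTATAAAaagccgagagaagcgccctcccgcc

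CCAAT, searched on both strands, was present in 4 copies before H2AFX, 3 before H2AFZ and 4 before H2AFV, and equally in 4 copies before H3F3B, which fell. The window of H1FX had none. Of all 35116 RefSeq windows of this length, 32.0% held at least 1 copy and 9.53% at least 2. H2AFJ had 3 copies, H2AFY2 none, H2AFY none and 2 in its 2 windows, and H3F3A 1 copy in 3 of its 4 windows. TATAAA, held by 10.7% of all windows, lay 31 bases before the start of H2AFX, H2AFZ and H1FX and 29 bases before that of H3F3B. The cell cycle element CHR, searched on both strands as TTTGAA or as TTCGAA, which reads the same on both and was counted once, was in the windows of H2AFX and H2AFV and in 14.3% of all windows. Cores of E2F sites, searched on both strands as TTCCCGC, as TTGGCGC, then as TTCGCGC and lastly as TTGCCGC, were in that of H1FX and in 1 of the 4 of H3F3A, against 10.9% of all windows. CCAAT stood before members of both directions. No marked motif overlapped another, and a match describes the letters, not binding.

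H2AFX encodes H2A.X, whose tail is phosphorylated by damage kinases around DNA breaks, and its message can be made with a stem-loop or with a poly(A) tail. Negative replicates 1 to 3 held 8.85, 6.60 and 7.16 FPKM, and positive replicates 1 to 3 held 62.4, 41.7 and 49.3 FPKM. Each positive library lay far above each negative one, and the positive libraries were more spread. The mean was 6.78 times as high in the positive group, with a log2 fold change of 2.60 ± 0.16 (adjusted p = 1.31e-05), above that of 98.7% of tested genes. H2AFX moved from the seventh place among the members by mean level to the fifth.

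H2AFZ and H2AFV encode H2A.Z.1 and H2A.Z.2, near-identical proteins that flank active and poised transcription starts. H2AFZ stood at 419, 436 and 434 FPKM in negative libraries, against 720, 617 and 683 FPKM in positive ones. It was among the most abundant members in both groups, and its log2 fold change was 0.64 ± 0.070 (adjusted p = 0.000184). Under quantile normalisation this value was 0.25 (adjusted p = 0.0047). H2AFV was at 24.1, 27.6 and 25.5 FPKM against 74.9, 70.9 and 81.1 FPKM, again with no overlap. Its mean was 2.94 times as high in the positive group, with a log2 fold change of 1.52 ± 0.079 (adjusted p = 6.09e-06).

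In the listed values the balance of the H2A.Z genes lay further towards H2AFV in positive libraries, although H2AFZ stayed the major source. H2AFZ made up 94.3% ± 0.270 of the summed FPKM of H2AFZ and H2AFV in negative libraries, against 89.9% ± 0.619 in positive ones. The shares did not overlap. A two-sided exact permutation test gave p = 0.1, no lower value being possible for 3 against 3, and 0.15 after adjustment over 3 pairs of paralogues. The pair summed to 455 ± 11.1 FPKM in negative and 749 ± 55.3 FPKM in positive libraries, and this sum was not tested.

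MacroH2A proteins carry a large domain beyond the histone fold and are known from silenced chromatin such as the inactive X chromosome. H2AFY, which encodes macroH2A1, had 41.9, 40.7 and 39.8 FPKM without ZsGreen and 124, 98.03 and 102 FPKM with it. All positive libraries lay above all negative ones, and the mean was 2.64 times as high (log2 fold change 1.37 ± 0.093, adjusted p = 1.92e-05). H2AFY2, which encodes macroH2A2, was at 18.2, 17.5 and 15.1 FPKM against 33.7, 23.5 and 32.6 FPKM. Its lowest positive library, replicate 2, still exceeded every negative one, and its log2 fold change was 0.77 ± 0.15 (adjusted p = 0.00281). H2AFY took 70.7% ± 1.51 of the summed FPKM of this pair in the negative group and 78.3% ± 2.45 in the positive group, without overlap (two-sided exact permutation test, p = 0.1, adjusted 0.15). The values are per gene, so the splice forms of macroH2A1 were not told apart.

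H2AFJ, which encodes H2A.J, a variant known to accumulate in senescent cells, was the lowest member with a value in every library. Its negative libraries had 1.58, 1.55 and 1.74 FPKM and its positive ones 4.33, 3.46 and 2.90 FPKM, with no overlap. These values rest on few reads, about 9.40 to 10.9 estimated fragments per negative library and 34.2 in ZsGreen-positive replicate 1, for a transcript of 644 bases. The log2 fold change was 0.79 ± 0.16 (adjusted p = 0.00375) and, with a pseudocount of 5, 0.37 (adjusted p = 0.00444).

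**Figure D2:**
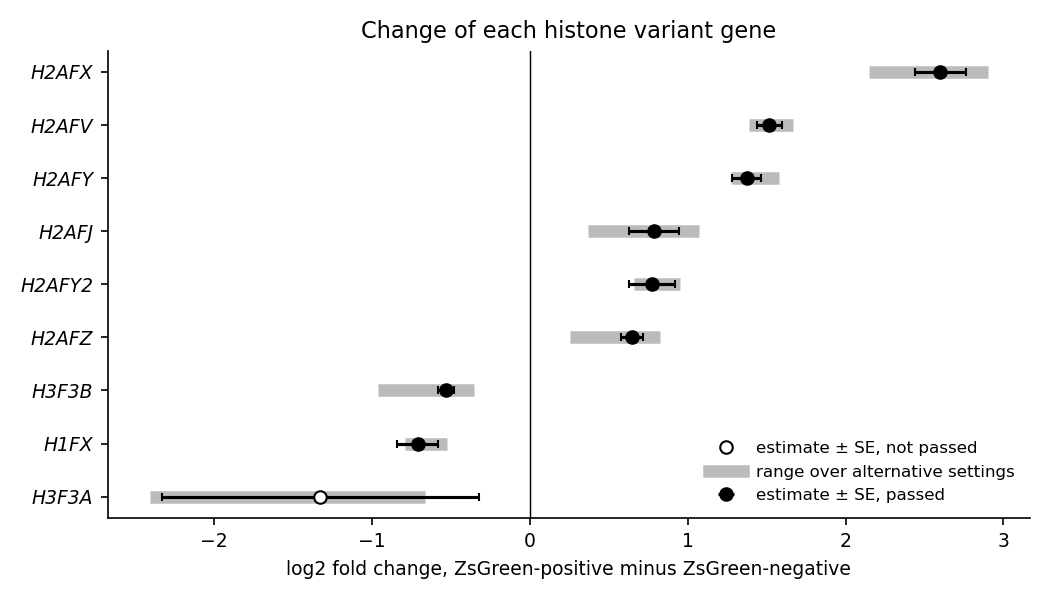
Log2 fold change of each member, ZsGreen-positive minus ZsGreen-negative (points, with SE as bars; filled where limma's adjusted p passed 0.05), over its range under the other settings tried (grey). The 6 H2A variants lie above 0 and H3F3B and H1FX below 0 over their whole grey range, and only H3F3A is unfilled.

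Linker histones compact chromatin between nucleosomes. H1FX encodes H1X, a linker variant. Its values were 59.3, 48.7 and 47.8 FPKM against 34.9, 33.4 and 26.1 FPKM, the negative mean being 1.65 times the positive one, with a log2 fold change of -0.71 ± 0.13 (adjusted p = 0.00254). Replicate 1 was the highest of the negative libraries and replicate 3 the lowest of the positive ones, and the groups did not overlap.

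H3.3 is the H3 variant placed into active genes by the HIRA complex and into telomeric and other repeats by DAXX and ATRX, and H3F3A and H3F3B encode the same protein. For H3F3B the negative libraries gave 551, 562 and 567 FPKM, and the positive ones 394, 376 and 392 FPKM. Each positive library was lower than each negative one, and the log2 fold change was -0.53 ± 0.051 (adjusted p = 9.92e-05). Scaling moved its size, to -0.96 under quantile normalisation and to -0.35 after rescaling each library to sum to 1000000, and it passed under both.

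H3F3A was listed at 14.8 FPKM in ZsGreen-negative replicate 1 and at 0 in the other 5 libraries. A value of 0 can be a failed estimate, and the log2 fold change of -1.33 ± 1.00 (adjusted p = 0.288) rests on that library alone. H3F3AP4, a retrocopy of H3F3A on another chromosome, was listed at 281, 285 and 292 FPKM in the negative and 337, 284 and 295 FPKM in the positive libraries. The 411 bases of its annotated transcript in GENCODE 29 are 100% identical to an H3F3A transcript, so that reads of the gene and of the copy cannot be told apart over that stretch. The FPKM of H3F3A and H3F3AP4 were also summed, an alternative added after the values were seen. The sum was 291 ± 5.61 against 305 ± 28.0 FPKM (log2 fold change 0.067 ± 0.074, adjusted p = 0.462). It is mostly the H3F3AP4 value, listed per length of a 411-base copy, whereas the matched H3F3A transcript has 1308 bases. Neither the listed values of H3F3A nor this sum therefore gives the change of H3F3A transcripts. H3F3AP4 alone did not pass (log2 fold change 0.091 ± 0.074, adjusted p = 0.317), but it was at 0.27 after rescaling to a sum of 1000000 (adjusted p = 0.00395) and at -0.27 under quantile normalisation (adjusted p = 0.00189). The share of H3F3B within H3F3A and H3F3B, 97.4% in ZsGreen-negative replicate 1 and 100% in every other library, carries the same limit (two-sided exact permutation test, p = 1).

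**Figure D3:**
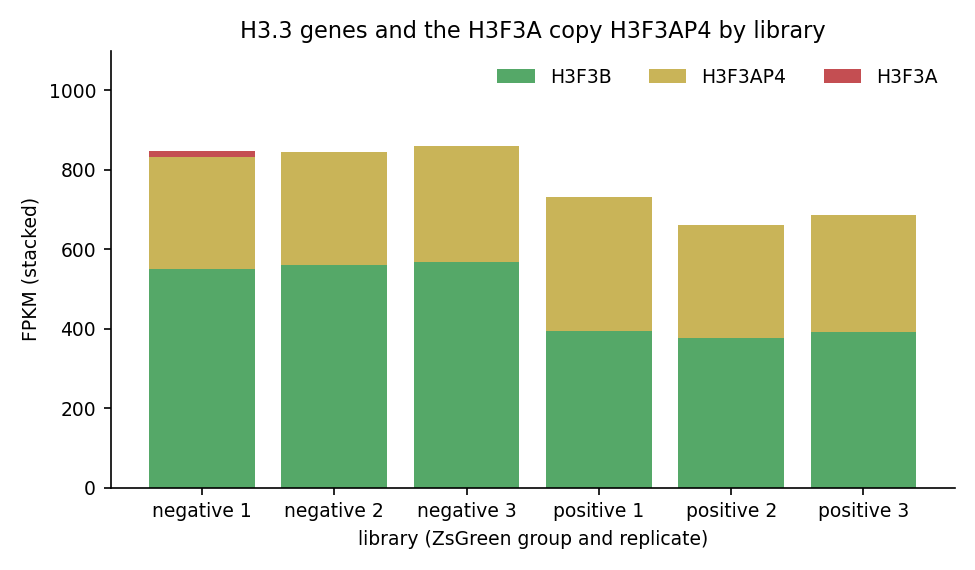
FPKM of H3F3B, of H3F3AP4 and of H3F3A, stacked for each of the 6 libraries. H3F3B falls from 551 to 567 FPKM in the negative libraries to 376 to 394 FPKM in the positive ones, the H3F3AP4 part stays between 281 and 337 FPKM, and H3F3A shows in negative replicate 1 only.

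The order of levels changed with these shifts. In the ZsGreen-negative libraries it ran from H3F3B through H2AFZ, H1FX, H2AFY, H2AFV, H2AFY2 and H2AFX to H2AFJ, and no neighbours in it overlapped. In the ZsGreen-positive libraries it ran from H2AFZ through H3F3B, H2AFY, H2AFV, H2AFX, H1FX and H2AFY2 to H2AFJ. There H1FX and H2AFY2 overlapped, and the remaining neighbours did not. H3F3A is left out of this order.

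**Figure D4:**
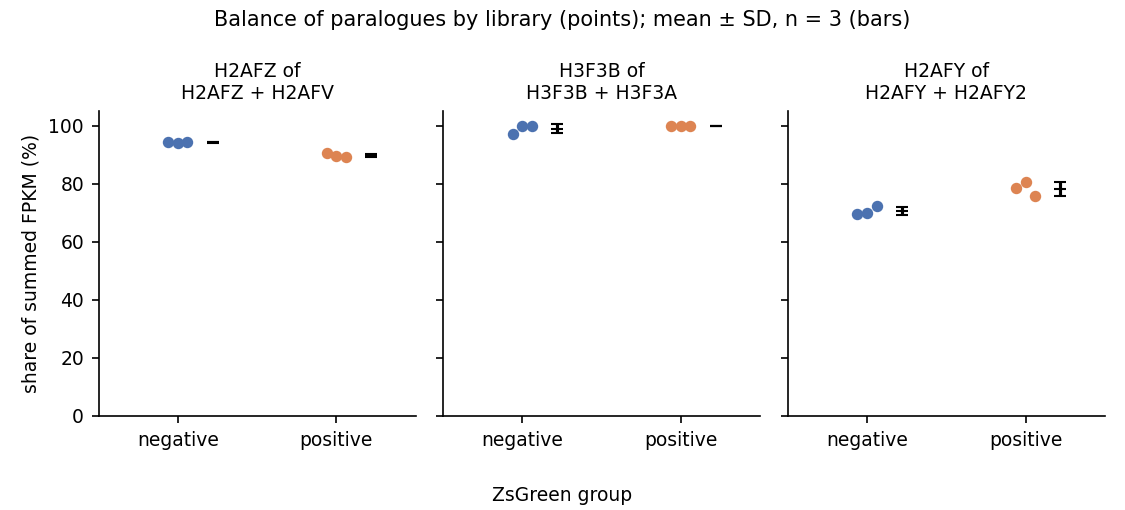
Share of the more abundant gene in the summed FPKM of each paralogue pair, in percent, for each library (points) with the mean and SD of n = 3 (bars). The share of H2AFZ is lower and that of H2AFY higher in the positive group, with no overlap, and the H3F3B share is at or near 100% throughout.

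Replication-dependent genes of the same families were mostly higher in the positive libraries, as the H2A variants were, whereas H1FX and H3F3B were lower. The difference between variants and replication-dependent genes was not itself tested. The list of H2A genes held 16, of which the 12 tested all rose, with a median log2 fold change of 2.76, from 0.55 to 4.33. Among 13 H3 genes 8 were tested, with 6 higher, 0 lower and 2 below the threshold, with a median of 2.99. The linker genes HIST1H1C (791 ± 29 to 986 ± 90.8 FPKM) and HIST1H1E (433 ± 32.2 to 570 ± 97.9 FPKM), the 2 tested of 5, rose by 0.31 and 0.39 on the log2 scale, but under quantile normalisation these were -0.22 and -0.0045. Without ZsGreen-negative replicate 3 neither of them passed. HIST1H1E also did not pass without ZsGreen-negative replicate 2 or, in limma with no filter, at an adjusted p of 0.0579. Among H2A genes, HIST1H2AJ rose from 31.4 ± 5.17 to 647 ± 87.4 FPKM, HIST1H2AI from 37.0 ± 5.85 to 557 ± 78.8 FPKM and HIST1H2AB from 47.9 ± 4.24 to 389 ± 35.7 FPKM. Among H3 genes, HIST1H3J rose from 27.4 ± 6.24 to 426 ± 30.3 FPKM, HIST1H3H from 130 ± 10.2 to 1420 ± 141 FPKM and HIST1H3B from 110 ± 5.0 to 1041 ± 136 FPKM. These genes closely resemble one another, so that single values are uncertain.

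The variants took a smaller part of the H3 and H2A families in the positive libraries. H3F3A and H3F3B together made up 56.4% ± 1.18 of the FPKM summed over H3 genes in the negative and 8.55% ± 0.497 in the positive libraries. With H3F3AP4 counted among the variants the shares were 66.1% ± 1.19 and 14.3% ± 0.686. The limit given for the sum of H3F3A and H3F3AP4 holds for these shares too. The 6 H2A members made up 20.7% ± 0.813 and 10.7% ± 0.0696 of their family, since replication-dependent H2A rose 3.92-fold and the variants 1.8-fold in sum. These are shares of poly(A)-selected RNA, in which stem-loop messages are depleted, so they do not give the makeup of all histone messages, and they were not tested.

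**Figure D5:**
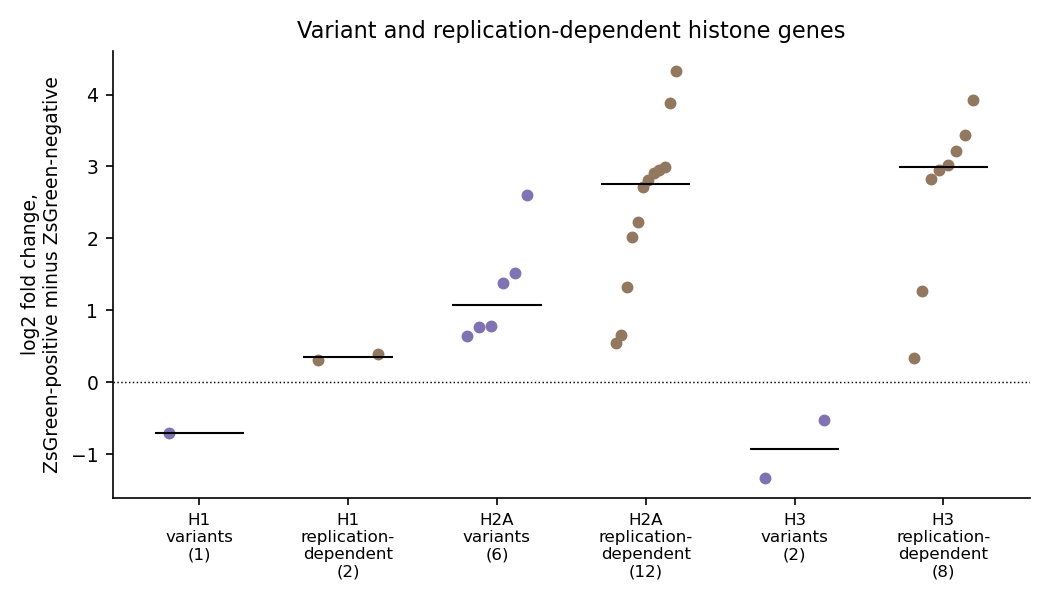
Log2 fold change of the tested genes of each histone family (points, with the median as a line; number of genes in brackets), variants beside replication-dependent genes. H1FX and the H3 variants lie below 0, the H3F3A point at -1.33 resting on 1 library, and H2A variants, at 0.64 to 2.60, lie within the range of replication-dependent H2A genes, 0.55 to 4.33.

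Genes that place, remove or read the variants were counted in 5 lists. Among all tested genes 59.4% were called, 29.4% as higher and 30.0% as lower, so counts near these shares say little about a list. Of 24 genes of H2A.Z deposition and removal, 9 rose, 8 fell and 7 did not pass, with a median log2 fold change of -0.080. RUVBL2, an ATPase shared by the SRCAP, TIP60 and INO80 remodellers, rose from 75.0 ± 2.08 to 192 ± 1.27 FPKM. ANP32E, the chaperone that takes H2A.Z off chromatin, rose from 15.4 ± 0.554 to 39.5 ± 1.54 FPKM, and BRD8, a TIP60 subunit, from 7.01 ± 0.324 to 18.8 ± 3.08 FPKM. Rescaled to a sum of 1000000, 2 genes of this list fell. Of 16 genes of H3.3 deposition and reading, 4 rose, 8 fell and 4 did not pass, with a median of -0.28. ASF1B, an H3-H4 chaperone linked to replication, rose from 2.46 ± 0.655 to 29.3 ± 5.57 FPKM. The remodeller gene CHD2 fell from 61.8 ± 0.751 to 25.4 ± 3.36 FPKM, and SETD2, which trimethylates lysine 36 of H3, from 13.7 ± 0.462 to 7.09 ± 0.301 FPKM. Without ZsGreen-negative replicate 1, or without replicate 2, 2 genes of this list rose.

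Of 23 listed genes of H2A.X phosphorylation and its readers, 20 were tested, of which 6 rose, 5 fell and 9 did not pass (median 0.15). These counts lie near the shares over all tested genes, 29.4% higher and 30.0% lower. BRCA1 rose from 2.52 ± 0.234 to 11 ± 1.75 FPKM, the checkpoint kinase gene CHEK2 from 6.85 ± 0.344 to 20.6 ± 2.75 FPKM and PPP4C, a phosphatase that acts on H2A.X, from 45.9 ± 0.336 to 84.3 ± 7.94 FPKM. The falls of this list depended on scaling and single libraries, with 1 after rescaling to a sum of 1000000 and 3 without ZsGreen-negative replicate 1 or 2 or ZsGreen-positive replicate 1. Of 13 macroH2A partners and regulators, 3 rose, 9 fell and 1 did not pass (median -0.50). After rescaling to a sum of 1000000, 7 of these fell (median -0.32), and with a minimum mean of 5 FPKM 6 of 10 tested fell. LMNB1, lamin B1, rose from 10.8 ± 1.30 to 77.2 ± 2.92 FPKM and PARP1, whose product binds macroH2A, from 23.0 ± 0.0168 to 77.2 ± 6.75 FPKM, whereas PARP9 fell from 44.6 ± 0.246 to 7.98 ± 1.45 FPKM. Of 14 linker histone chaperones and proteins that share linker sites or bind H1-rich chromatin, 12 rose, 1 fell and 1 did not pass (median 0.93). HMGB2 rose from 34.0 ± 1.41 to 206 ± 15 FPKM, HMGB1 from 119 ± 1.92 to 325 ± 6.79 FPKM and CBX3, a heterochromatin protein, from 72.5 ± 4.40 to 197 ± 9.62 FPKM, opposite in direction to H1FX.

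Proliferation markers were higher where the H2A members were higher and H1FX and H3F3B lower. The lists of proliferation and arrest genes were chosen with earlier results of these data known. All 16 proliferation markers rose (median log2 fold change 2.78), and their summed level was 216 to 228 FPKM in the negative and 1106 to 1232 FPKM in the positive libraries. MKI67 rose from 2.34 ± 0.190 to 8.61 ± 0.861 FPKM, PCNA, the replication clamp, from 91.8 ± 5.15 to 170 ± 19.6 FPKM and TOP2A, topoisomerase II alpha, from 6.0 ± 0.15 to 39.3 ± 3.99 FPKM. The largest changes of the list were those of RRM2 (5.07 ± 0.319 to 69.4 ± 7.60 FPKM), CDK1 (8.41 ± 0.349 to 93.4 ± 5.72 FPKM) and BIRC5 (5.54 ± 0.842 to 62.9 ± 2.68 FPKM). The shares over all tested genes were 59.4% called, 29.4% higher and 30.0% lower. Of 12 genes of cell cycle arrest, 7 fell, 0 rose and 5 did not pass (median -0.49). After rescaling to a sum of 1000000, 5 of these fell and 1 rose (median -0.31). GADD45B fell from 52.4 ± 0.485 to 7.20 ± 2.73 FPKM, CDKN2B, an inhibitor of CDK4 and CDK6, from 17.3 ± 0.712 to 2.02 ± 0.704 FPKM and BTG1 from 38.4 ± 0.355 to 9.71 ± 0.897 FPKM. The part of the cell cycle in the changes of the variants was not tested, and in bulk RNA more cells in cycle and more message per cell cannot be told apart.

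Epithelial markers gave 2 rises, 6 falls and 2 not passing of 10 tested, against 29.4% higher and 30.0% lower over all tested genes. CLDN4 fell from 381 ± 5.74 to 93.0 ± 14.2 FPKM, the transcription factor gene ELF3 from 100.1 ± 1.95 to 35.0 ± 3.33 FPKM and CDH1, E-cadherin, from 49.8 ± 0.455 to 17.4 ± 1.42 FPKM. The rises were those of EPCAM and CDX2. Only 1 gene rose when any 1 library other than ZsGreen-positive replicate 3 was left out. The same held under scaling to the same median, quantile normalisation, no trend and the replicate block. After rescaling to a sum of 1000000, 3 rose and 5 fell. Of 18 markers of intestinal differentiation, 14 stayed below 1 FPKM in every library, and the 2 that were tested, CA2 and KRT20, did not pass. CA2 was at 9.75 ± 0.744 against 7.86 ± 2.21 FPKM, and without ZsGreen-positive replicate 2 its log2 fold change of -0.49 passed. Without ZsGreen-positive replicate 3, 1 of these genes, KRT20, was higher, without both of these replicates 1 was higher and 1 lower, and with no filter 2 of 11 tested were lower. Of the 18, 7 were at 0 in every library.

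Genes most like the members in profile were sought by the Euclidean distance of log2(FPKM + 1) over the 6 libraries, after centring each gene on its mean. Nearest to H2AFX were TYMS, thymidylate synthase (distance 0.202 log2 units), HAUS7, a subunit of the augmin complex of the spindle (0.321), and the replication-dependent HIST1H2AM (0.324). TYMS went from 3.27 ± 0.540 to 26.5 ± 5.47 FPKM, HAUS7 from 0.832 ± 0.0987 to 8.77 ± 2.34 FPKM and HIST1H2AM from 95.1 ± 6.69 to 637 ± 102 FPKM. The negative values of HAUS7 lie below the pseudocount of 1, so its nearness depends on that setting. With a pseudocount of 0.1 its log2 fold change was 3.22, against 2.74 for H2AFX. For H3F3A, the member with the lowest log2 fold change, the nearest genes, MT1F, LINC01473 and HIST1H1T, were distant, at 2.78 to 2.82 log2 units. With 2 groups of 3 libraries, such a distance mostly reflects the change between the groups.

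Some member values carry limits of counting. On the opposite strand, GENCODE 29 places UNK over H3F3B (mean 8.52 FPKM), AIFM2 over H2AFY2 (5.44 FPKM), C5orf66 over H2AFY (1.65 FPKM) and H1FX-AS1 over H1FX (0.356 FPKM). The kit keeps strand, but whether the counting used it is not given in the sources used here. At 90% identity over 200 bases or more, 14 other annotated genes resembled H3F3A, 2 resembled H2AFZ, 1 H2AFV and 1, H3F3C, H3F3B, and of these only H3F3AP4 and H3F3C have a row in the deposited tables. H3F3C was listed at 0.106 FPKM in ZsGreen-negative replicate 1, at 0.0858 FPKM in ZsGreen-positive replicate 1 and at 0 elsewhere.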

How the data were processed

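RNA from 6 samples of HCT116 cells was sequenced after poly(A) selection with the TruSeq Stranded mRNA kit, per the labels' protocols. The authors deposited FPKM values, 1 per gene symbol and library. The submitters' processing notes name Cuffdiff 2.2.1, TopHat2 2.1.1, SAMtools 0.1.18 and Bowtie2 2.2.8, with the build hg19. Not given in the sources used here are settings, annotation, strand handling and scaling between libraries. FPKM depends on a total, so a few abundant RNAs can shift all genes. Genes with a mean of at least 1 FPKM entered limma 3.58.1 (R 4.3.3) on log2(FPKM + 1), two-sided, with a mean-variance trend, over 3 against 3 libraries, and adjusted over all tested genes (4 residual and 3.22 prior degrees of freedom). The fit was tried on simulated data in which few genes changed and both groups had the spread of the negative libraries. That setting differs from these data, so it does not show how well the fit performs here. Exact permutation tests of shares used Python 3.11.15.

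The members and the 17 gene lists beside them were chosen with earlier results of these data known. Of the 10 members, 1 is not reported here. Beside the members, up to 3 genes per list are named by the size of their called change without overlap (where none passed, the most abundant), with MKI67, PCNA and TOP2A and the nearest profiles of the members with the highest and lowest change. KRT8, KRT18, EPCAM, CDX1, CDX2, VIL1, KRT20 and H3F3C were added after their values were seen. Depth was read from the commonest low product of FPKM and length among 2137 genes with 1 GENCODE 29 transcript of at least 1000 bases, and it counts fragments after any scaling by the authors. Depth in ZsGreen-positive replicates 2 and 3 was not estimated. Near copies were sought with BLAST 2.17.0. Other pseudocounts, filters, scalings, a fit without the trend, the replicate block and left-out libraries were tried.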

Additional observations from a re-analysis of the deposited data

How the results depend on the processing

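All 8 called members kept their direction and passed under each setting that tested them (16 each, 15 for H2AFJ, which a minimum of 5 FPKM removes). H3F3A passed under none of its 14 (adjusted p 0.157 to 0.537), and is not tested without ZsGreen-negative replicate 1 or with a minimum of 5 FPKM. Over all genes, 5937 to 7578 were called with 1 library left out and 8850 without both ZsGreen-positive replicates 2 and 3, against 7258. The last fit assumes that the lone library varies like the other group. Rescaling to a sum of 1000000 moved the median of all genes from 0.0040 to 0.14, and 62.1% of called genes were then higher, against 49.5%. Relative to that shift H2AFZ, at 0.82, and H3F3B, at -0.35, stay on their sides.

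The numbers were not taken as pairs, since nothing says that they pair the libraries. Deviations from the group means correlated at -0.030 to -0.021 between same-numbered libraries and at -0.0056 to 0.029 between differently numbered ones. With the replicate block 6915 genes were called, and 8 members, 6 higher and 2 lower.

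Under quantile normalisation HIST1H1E was at -0.0045, HIST1H1C at -0.22 and H3F3AP4 at -0.27, where the cause was not tested. Summing H3F3AP4 into H3F3A gave 0.067. Leaving out 1 library each, the difference in the H3F3B share was 0 to 1.31 percentage points, 0 without ZsGreen-negative replicate 1, the only library with a value for H3F3A. Of 792 values of other named genes, 763 kept direction and call, 22 lost the call, 4 gained it and 3 reversed. H2AFJ is limited by depth.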

Other observations

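Histone genes listed as other variants, outside the 10 members, were mostly at or near 0. Of 16 such genes with a row, 10 were listed at 0 in every library and 5 were tested, of which 3 rose, 1 fell and 1 did not pass. CENPA, the H3 variant of centromeres, had 1.76, 1.89 and 2.16 FPKM in negative libraries, against 19.4, 9.93 and 14.1 FPKM in positive ones (log2 fold change 2.36 ± 0.22, adjusted p = 8.6e-05). HIST3H2BB, counted among the 3 although it is an H2B gene of a histone cluster, rose from 147 ± 4.50 to 376 ± 35.8 FPKM. HIST1H1T, known from the testis, was listed at 3.43, 2.34 and 1.41 FPKM against 0.681, 0 and 0 FPKM and fell, but did not pass without both ZsGreen-positive replicates 2 and 3, and was under the minimum of 1 FPKM, so not tested, without ZsGreen-negative replicate 1.

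Of 13 genes that process the 3′ ends of histone messages, 4 rose, 1 fell and 8 did not pass. Over all tested genes 29.4% were called higher and 30.0% lower. CPSF3, the cleavage enzyme, rose from 33.1 ± 1.88 to 56.4 ± 4.85 FPKM and SYMPK, a scaffold, from 7.30 ± 0.554 to 12.3 ± 0.515 FPKM. LSM10, of the U7 particle, fell from 18.3 ± 2.52 to 9.38 ± 4.56 FPKM and did not pass without ZsGreen-negative replicate 1 or 2 or without ZsGreen-positive replicate 1 or 2. After rescaling to a sum of 1000000, 7 of these genes rose. LYZ (1.81 ± 0.206 to 0.605 ± 0.815 FPKM) and COL1A1 (2.1 ± 0.113 to 0.865 ± 0.266 FPKM), the called markers of other cells, fell, and LYZ lost its call without any 1 library other than ZsGreen-positive replicate 2, with a pseudocount of 0.1 (adjusted p = 0.0753), with no filter (0.0805) and after rescaling to a sum of 1000000 (0.0896).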
